A study of Mus musculus with 12 samples.

Results

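Aquaporins are small membrane proteins that form pores for water. The 7 aquaporin genes described here, Aqp1, Aqp3, Aqp4, Aqp5, Aqp8, Aqp9 and Aqp11, were chosen by gene symbol and found by Ensembl identifier among the 56065 genes of the count table. Of the 7, 4 (Aqp1, Aqp4, Aqp5 and Aqp11) passed the filter on low counts that left 17893 genes for testing, and the other 3 (Aqp3, Aqp8 and Aqp9) are given by their counts. RNA of the whole mouse submandibular gland (SMG) was sequenced in 12 libraries, 1 per mouse. There were 3 mice in each of 4 groups: WT (C57BL/6J) females, WT males, knockout females and knockout males, the last pair from the C57BL/6J-Pou2f3 knockout line, written Pou2f3-/- here. Per the study's methods the mice were 8 weeks old. Pou2f3 encodes the transcription factor that defines tuft cells, a rare chemosensory cell of the ducts, and the comparison asks how the gland differs when these cells are missing, in each sex. The knockout affects the whole animal, the WT groups carry no deletion, and the glands were sequenced whole.

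Saliva is made in the acini, where secretory cells move chloride and sodium into the lumen and water follows the salt. Aqp5 lies in the apical membrane of salivary acinar cells and is the main route for that water. Aqp1 is the water channel of red cells and of the endothelium of small vessels, Aqp4 is best known from astrocytes and some epithelia, and Aqp8 from liver, pancreas and colon. Aqp3 and Aqp9 are aquaglyceroporins, which pass glycerol as well as water, and Aqp11 is an unorthodox member found inside the cell.

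Total estimated counts per library ran from 47032175 to 67882207, and the 20 most abundant genes took 53.2 to 80.0% of them. The TMM factors that adjust library size for such composition were 0.625 to 0.759 in WT females, 0.902 to 1.03 in Pou2f3-/- females, 1.04 to 1.45 in WT males and 1.11 to 1.25 in Pou2f3-/- males, so they moved with the groups. Levels are therefore given below on the TMM-adjusted scale (normalized CPM, the CPM of a gene relative to the adjusted library size), and results that depend on this scaling are named. Pou2f3 itself had counts of 1, 0 and 2 in WT females, 0, 0 and 0 in Pou2f3-/- females, 1, 10 and 0 in WT males and 0, 3 and 1 in Pou2f3-/- males, too few in whole glands to check the genotype labels. Summed markers of the granular convoluted tubule, a duct segment that is larger in male mice, were 4790 to 10150 normalized CPM in the 6 female glands and 72140 to 129100 in the 6 male glands, as the sex labels say.

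Aqp5 was by far the most abundant aquaporin in every library, and Aqp1 was second in every library. Per kilobase of transcript, Aqp5 ran from 41.2 to 172.9 normalized CPM and Aqp1 from 0.771 to 1.94 over the 12 glands. Of all counts assigned to the 7 genes, Aqp5 took on average 98.2% in WT females, 97.2% in Pou2f3-/- females, 96.9% in WT males and 94.4% in Pou2f3-/- males. The next pair, Aqp4 and Aqp11, did not differ beyond their spread in WT females, at 0.1015 ± 0.0343 and 0.0863 ± 0.0192 normalized CPM per kilobase (SD, n = 3), and changed places between libraries; in WT males Aqp4, at 0.120 ± 0.0192, lay above Aqp11, at 0.0527 ± 0.0110. Aqp3 and Aqp9 followed with single-digit counts in all but 1 library, in no fixed order, and Aqp8 had no count in any. In Pou2f3-/- male replicates 2 and 3, Aqp11 lay below Aqp3.

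**Figure D1:**
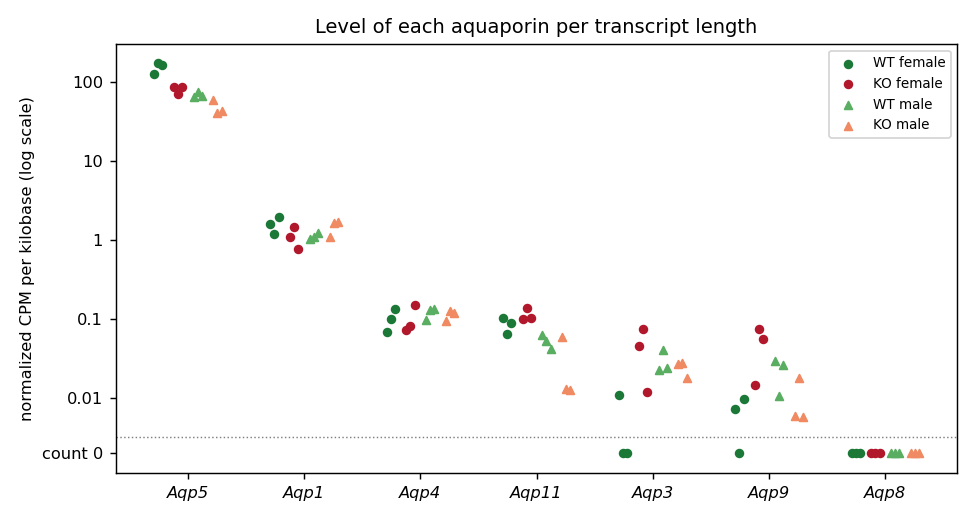
Normalized CPM per kilobase of the canonical transcript (log scale; counts of 0 on the bottom line) for the 7 aquaporins; each point is 1 of 12 glands and colours mark the 4 groups. Aqp5 sits between 41.2 and 172.9, Aqp1 near 1, and Aqp8 at 0 in all 12.

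Aqp5 (ENSMUSG00000044217.19; chromosome 15, 99488532 to 99492710, plus strand, GRCm39) was lower in Pou2f3-/- than in WT glands of both sexes and lower in males than in females of both genotypes; the comparison of Pou2f3-/- with WT males did not pass the adjusted threshold. Its normalized CPM was 247.9, 333.4 and 322.8 in the 3 WT females and 169.4, 136.0 and 167.1 in the 3 Pou2f3-/- females. It was 126.5, 143.1 and 129.4 in the WT males and 114.7, 79.4 and 83.0 in the Pou2f3-/- males. All WT females lay above all other libraries, and the Pou2f3-/- males lay below all other libraries, so neither sex showed overlap between genotypes. The same lack of overlap was seen for 49.3% of all tested genes in females and 14.5% in males. The counts behind these values were 12380 to 14861, 7793 to 8478, 9071 to 10069 and 4897 to 7109, so counting error is small beside the differences between mice.

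In females, Aqp5 fell with the knockout from a mean of 301.4 ± 46.6 to 157.5 ± 18.7 normalized CPM (SD, n = 3), a log2 fold change of −0.94 (SE 0.165, 95% interval −1.29 to −0.58, edgeR adjusted p = 0.0011). It was the only 1 of the 4 tested aquaporins called in that contrast, in which 36.9% of all tested genes were called and 19.3% were called lower. In males, the means were 133.0 ± 8.86 in WT and 92.4 ± 19.4 in Pou2f3-/- (SD, n = 3), a log2 fold change of −0.53 (SE 0.164, 95% interval −0.88 to −0.17), with an unadjusted p of 0.00697 and an edgeR adjusted p of 0.217. None of the 4 tested members was called in males by edgeR or by DESeq2, where edgeR called 0.235% of all genes; Aqp5 was the only 1 of the 4 with an unadjusted p under 0.05, and its groups did not overlap, as for 14.5% of the tested genes. Without Pou2f3-/- male replicate 1, the male log2 fold change was −0.71 with an edgeR adjusted p of 0.0305; that fit called 3.42% of all genes in males, and with each of the other 11 libraries left out Aqp5 was not called (edgeR adjusted p of 0.152 to 0.769). The difference between the sexes' knockout contrasts was 0.41 (SE 0.231, edgeR adjusted p = 0.201), with an interval of −0.09 to 0.91, and did not pass the test. It passed without WT female replicate 1 (0.63, edgeR adjusted p = 0.042) and with the authors' divisors (0.68, edgeR adjusted p = 0.037), and turned to −0.21 with library totals alone.

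Between the sexes, Aqp5 was lower in males by a log2 fold change of −1.18 in WT (SE 0.166, edgeR adjusted p = 0.000124) and −0.77 in Pou2f3-/- glands (SE 0.164, edgeR adjusted p = 0.00232). In these contrasts 36.5% and 43.5% of all tested genes were called, 16.0% and 20.3% lower in males; the groups of Aqp5 did not overlap in either, as for 47.6% and 54.8% of the tested genes. The contrasts share libraries: WT females enter both the female knockout contrast and the WT sex contrast. The 3 calls of Aqp5 held under all 9 planned settings, other scalings included, and were lost with library totals alone, a setting chosen after seeing the data that moved the median log2 fold change of all genes from 0.03 to 0.53 in the female knockout contrast and from 0.06 to 0.96 in the WT sex contrast: Aqp5 then stood at −0.41 with the knockout in females (edgeR adjusted p = 0.0995), −0.28 between the sexes in WT (edgeR adjusted p = 0.202) and −0.49 in Pou2f3-/- (edgeR adjusted p = 0.0566). With acinar-marker library sizes, also chosen after seeing the data, the female call was lost (−0.25) and Aqp5 was called higher in males, at 0.56 in WT (edgeR adjusted p = 0.01) and 0.68 in Pou2f3-/- (edgeR adjusted p = 0.00345), where 89.5% and 76.4% of all tested genes were called. Taken relative to the median of all genes, the Aqp5 difference was −0.97 (TMM) and −0.94 (totals) with the knockout in females, and −1.24 under both scalings between the sexes in WT. A change of library sizes moves each gene and the median nearly alike, so these values cannot tell the scalings apart.

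**Figure D2:**
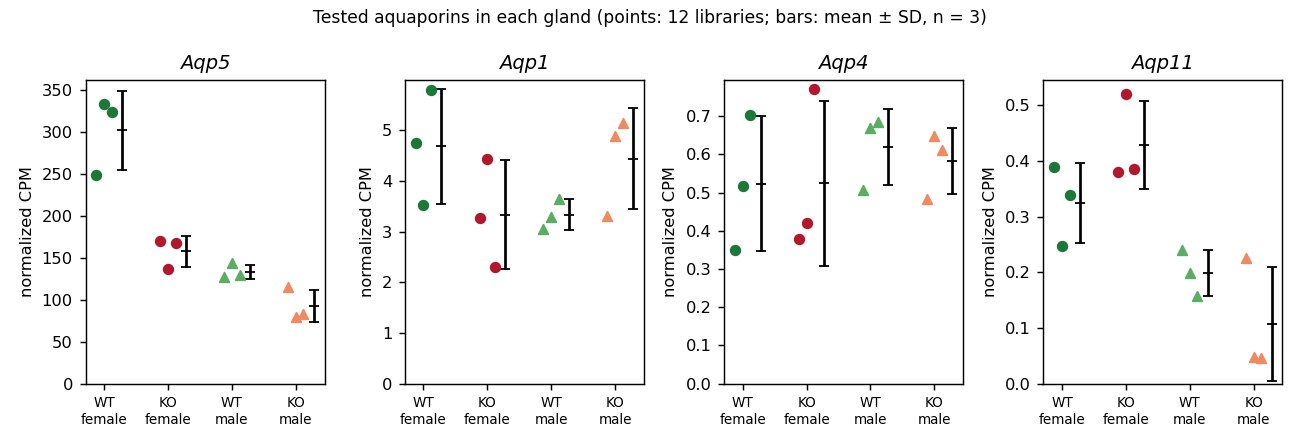
Normalized CPM (y axis, from 0) of the 4 tested aquaporins in each of the 12 glands; points are libraries and bars the group mean ± SD (n = 3). Aqp5 steps down from WT females (247.9 to 333.4) to Pou2f3-/- males (79.4 to 114.7), while the groups of Aqp1 and Aqp4 overlap in each knockout contrast.

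The genes whose pattern over the 12 libraries was nearest to that of Aqp5 included a channel of the same secretory step. Likeness was the root mean square difference of log2 CPM after each gene's mean was taken off, over 12 libraries; the root mean square spread of Aqp5 itself was 0.643. Kcnn4, the calcium-activated potassium channel that helps drive fluid secretion, was nearest at 0.0734. It was followed by Ephx1, a microsomal epoxide hydrolase, at 0.113, Fxyd3, a regulator of the sodium pump, at 0.116, Sh3bgrl2 at 0.128 and Slc5a8, a sodium-coupled monocarboxylate transporter, at 0.132. These 5 were picked for their likeness over the same libraries, so their contrasts are a description: Kcnn4 stood at −0.89 with the knockout in females, −0.50 in males, −1.28 between the sexes in WT and −0.89 in Pou2f3-/-. The Aqp5 to Kcnn4 ratio within a library does not depend on library size, and its log2 lay between 0.479 and 0.722 in all 12 glands. Kcnn4 was picked for this likeness, so the narrow range restates that choice.

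**Figure D3:**
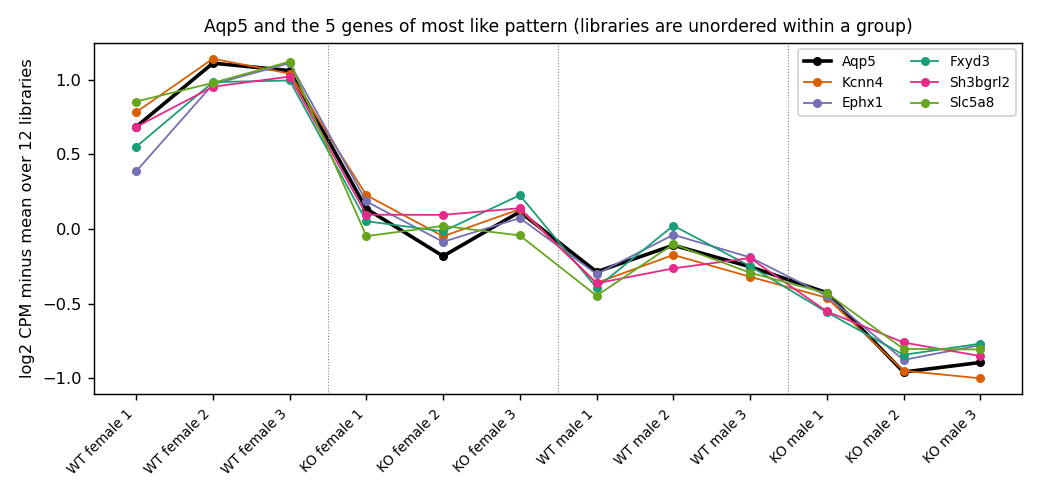
Log2 CPM minus the gene's mean over the 12 libraries (y axis) for Aqp5 (black) and the 5 genes of most like pattern; the x axis lists the libraries by group, in no order within a group. The 6 lines stay together and are highest in WT females and lowest in Pou2f3-/- males 2 and 3.

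Kcnn4 was the gene picked as nearest to Aqp5 in pattern, and the 250 bases before the start site of each are shown. They are from the RefSeq promoter table on build GRCm38.p6, an older build than that of the counts. Capitals mark the palindrome CACGTG and the GC box GGGCGG (or its complement CCGCCC). Aqp5 lies at chr15:99590778-99591027 and Kcnn4 at chr7:24370013-24370262, both on the plus strand.

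Aqp5: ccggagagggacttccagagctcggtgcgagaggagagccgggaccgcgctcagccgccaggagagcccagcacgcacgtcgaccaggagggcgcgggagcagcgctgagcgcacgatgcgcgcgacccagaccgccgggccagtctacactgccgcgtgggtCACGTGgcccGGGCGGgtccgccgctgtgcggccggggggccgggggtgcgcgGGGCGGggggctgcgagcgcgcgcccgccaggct

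Kcnn4: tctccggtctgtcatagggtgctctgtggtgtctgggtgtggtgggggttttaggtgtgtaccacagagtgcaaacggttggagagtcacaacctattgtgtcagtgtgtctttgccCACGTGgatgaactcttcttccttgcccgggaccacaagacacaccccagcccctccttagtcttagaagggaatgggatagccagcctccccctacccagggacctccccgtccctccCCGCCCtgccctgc

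Both windows held CACGTG once, starting 87 bases before the start site in Aqp5 and 133 before it in Kcnn4. Of 32851 windows of that length in the table, 6.02% held these letters, which read the same on both strands; so did Aqp8, which had no count, among the 6 members read. GGGCGG or CCGCCC occurred 2 times in Aqp5 and 1 time in Kcnn4, against 32.7% of all windows with at least 1. Neither held TATAAA (12.4% of windows on either strand), CATATG (3.46%), AGAACA or TGTTCT (16.1%), or ATGCAAAT or ATTTGCAT (1.60%), the octamer that POU factors are known to bind. Aqp5 was rich in G and C, at 78.4% of bases, and Kcnn4 stood at 58.8%. A match describes the letters and not a bound site, and the lack of one says nothing of the factor.

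Aqp5 is known as a gene of acinar cells, and in whole glands fewer acinar cells and less RNA per cell cannot be told apart. The summed level of 8 acinar markers was 68190 to 81570 normalized CPM in WT females, 43420 to 48370 in Pou2f3-/- females, 18410 to 28500 in WT males and 14270 to 20580 in Pou2f3-/- males, so it was ordered like Aqp5. None of the 8 was at 0 in a whole group. With the knockout 3 of the 8 fell in females (Pip, Lpo and Car6), where 19.3% of all tested genes did, and 0 were called in males, where 0.235% were. Between the sexes 5 of 8 were lower in WT males and 4 of 8 in Pou2f3-/- males, against 16.0% and 20.3% of all tested genes. Of the 8, Dcpp1, Dcpp2 and Dcpp3, secreted proteins encoded by a family of near-identical genes, ranged from 1 to 13547, 0 to 50563 and 1 to 52586 counts between libraries, which makes a mean over all 8 uninformative.

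Ratios of Aqp5 to single acinar markers within a library, which are free of library scaling, depended on the marker. Against Lpo, the lactoperoxidase of saliva, the log2 ratio was −1.30 ± 0.165 in WT and −1.30 ± 0.138 in Pou2f3-/- females (SD, n = 3), and −1.61 ± 0.196 in WT and −1.44 ± 0.094 in Pou2f3-/- males. Against Bhlha15, the transcription factor of secretory cells also known as Mist1, it was −0.09 ± 0.144 in WT and −0.77 ± 0.108 in Pou2f3-/- females (SD, n = 3), and −0.22 ± 0.181 in WT and −0.70 ± 0.0365 in Pou2f3-/- males. Thus Aqp5 kept step with Lpo across genotypes, while its ratio to Bhlha15 was lower in all 6 Pou2f3-/- glands than in all 6 WT glands. Against Prol1, a secreted protein of the tear and salivary glands, the ratio was higher in males, at −6.12 ± 0.385 in WT males against −7.07 ± 0.238 in WT females (SD, n = 3). Pip gave −4.98, −4.90, −4.87 and −5.16 and Car6, the secreted carbonic anhydrase, gave −6.26, −6.34, −5.89 and −5.87 as means of WT females, Pou2f3-/- females, WT males and Pou2f3-/- males. These ratios are descriptions without a test, and with library sizes set by the summed acinar markers the sign of the Aqp5 sex contrasts turned, as given above.

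**Figure D4:**
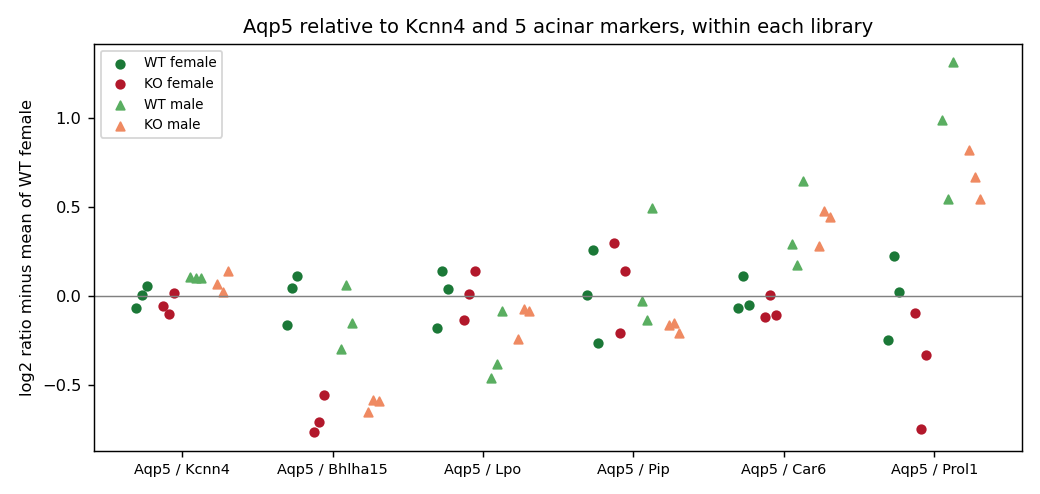
Log2 ratio of Aqp5 to Kcnn4 and to 5 acinar markers within each library, minus the mean ratio of WT females (y axis); each point is 1 of 12 glands. The Kcnn4 ratios stay near 0 in every group, the Bhlha15 ratios of all 6 Pou2f3-/- glands lie below those of the 6 WT glands, and the Prol1 and Car6 ratios are higher in males.

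Aqp1 (ENSMUSG00000004655.6; chromosome 6, 55313068 to 55325540, plus strand) had a knockout contrast of opposite sign in the sexes on the TMM scale, and neither passed the test; with library totals alone or acinar-marker library sizes the female contrast was 0.0095 or 0.20, of the same sign as the male one (0.28 and 0.86). Normalized CPM was 4.75, 3.52 and 5.79 in WT females and 3.28, 4.43 and 2.29 in Pou2f3-/- females. It was 3.06, 3.30 and 3.65 in WT males and 3.31, 4.88 and 5.14 in Pou2f3-/- males. The groups overlapped in both sexes. Aqp1 stood at −0.48 with the knockout in females (SE 0.249, edgeR adjusted p = 0.147) and 0.41 in males (SE 0.245, edgeR adjusted p = 0.561). Without Pou2f3-/- female replicate 2 it was called lower in females (−0.79, edgeR adjusted p = 0.0365), in the interaction (1.25, edgeR adjusted p = 0.0226) and higher in Pou2f3-/- males than in Pou2f3-/- females (0.73, edgeR adjusted p = 0.0439); the interaction was also called without WT female replicate 2 (1.15) or Pou2f3-/- male replicate 1 (1.08). The difference of the contrasts was 0.90 (SE 0.350), with an unadjusted p of 0.0237 and an edgeR adjusted p of 0.0742; none of the 4 tested members passed this test in edgeR, against 25.7% of all genes, while DESeq2 called Aqp1 with an adjusted p of 0.033 and edgeR without a low-count filter gave 0.0478. Between the sexes Aqp1 stood at −0.49 in WT (edgeR adjusted p = 0.140) and 0.41 in Pou2f3-/- (edgeR adjusted p = 0.200); it was called higher in Pou2f3-/- males with library totals alone (0.69, edgeR adjusted p = 0.0416), and in males of both genotypes with acinar-marker library sizes (1.27 and 1.92).

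Beside Aqp1, the summed level of 12 endothelial markers was 56.8 to 75.2 normalized CPM in WT females, 55.0 to 61.7 in Pou2f3-/- females, 44.6 to 59.0 in WT males and 35.5 to 45.4 in Pou2f3-/- males. Of the 12, 1 (Kdr) fell with the knockout in females, where 19.3% of all tested genes did, and 0 were called in males, where 0.235% were; 6 of 12 were lower in WT males than in WT females and 8 of 12 in Pou2f3-/- males than in Pou2f3-/- females (16.0% and 20.3% of all tested genes were). The 7 red cell markers summed to 1.89 to 3.91, 1.40 to 2.22, 2.05 to 2.87 and 3.83 to 11.6 normalized CPM in the same order of groups, highest in Pou2f3-/- males. Of the 6 red cell markers tested, 0 were called with the knockout in either sex, 2 were called in the interaction, where 25.7% of all tested genes were, and 5 were higher in Pou2f3-/- males than in Pou2f3-/- females (23.2% of all tested genes were). The 3 libraries with the highest Aqp1, WT female replicate 3 and Pou2f3-/- male replicates 2 and 3, were also the 3 highest in summed adipocyte markers, at 83.3, 61.9 and 37.8 normalized CPM against 1.66 to 11.2 in the other 9. WT female replicate 1, with Aqp1 of 4.75 beside 4.88 in Pou2f3-/- male replicate 2, had an adipocyte sum of 4.05 beside 61.9. Pou2f3-/- female replicate 2 had Aqp1 of 4.43 and an adipocyte sum of 6.98. Of the 6 adipocyte markers, none was at 0 in a whole group, 3 fell with the knockout in females, 0 were called in males, and all 6 were called in the interaction, beside the same 25.7%, with the sign of the Aqp1 value. The part of endothelium, red cells and fat in the Aqp1 values was not tested.

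**Figure D5:**
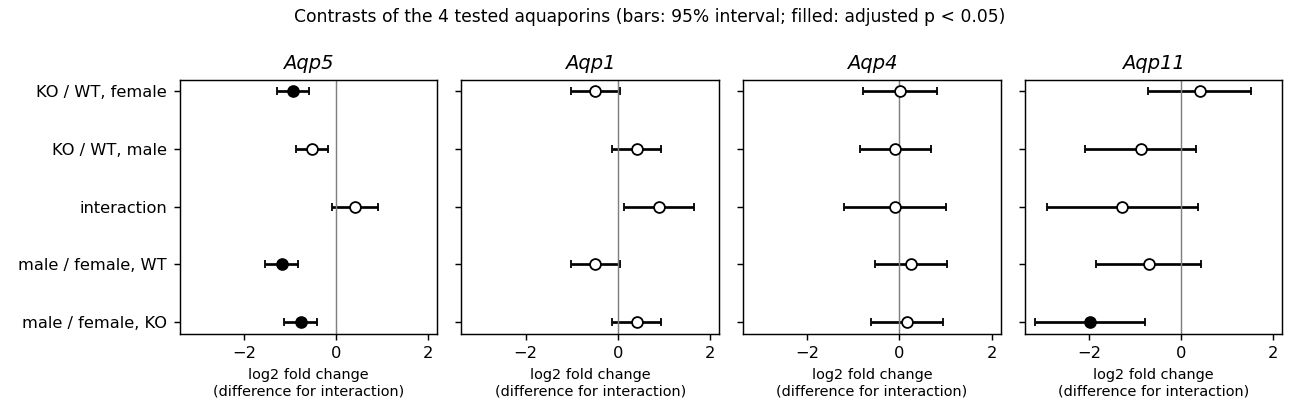
Log2 fold change (x axis; for the interaction, the male minus the female knockout contrast) of the 4 tested aquaporins with its 95% interval; filled points have an edgeR adjusted p under 0.05. The filled points are Aqp5 in females and in both sex contrasts and Aqp11 between the sexes in Pou2f3-/- glands, and all of them lie below 0.

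The aquaglyceroporins were near the limit of detection. Aqp3 (chromosome 4, 41092722 to 41098183, minus strand) had 1, 0 and 0 counts in WT females and 4, 8 and 1 in Pou2f3-/- females. It had 3, 5 and 3 counts in WT males and 3, 3 and 2 in Pou2f3-/- males. Aqp9 (chromosome 9, 71017928 to 71075964, minus strand) had 1, 0 and 1 counts in WT females and 2, 12 and 7 in Pou2f3-/- females, then 6, 2 and 5 in WT males and 1, 3 and 1 in Pou2f3-/- males. Both had their lowest mean in WT females, but Aqp9 there (0 to 0.02607 normalized CPM) overlapped Pou2f3-/- males (0.01571 to 0.04865). Neither passed the low-count filter, so no fold change is given, and Aqp9 overlaps Gm32511, Gm32714 and Gm47268 on the other strand.

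Aqp4 (ENSMUSG00000024411.12; chromosome 18, 15522451 to 15544039, minus strand) was low, and on the TMM scale no contrast of it passed the test. Its normalized CPM was 0.350, 0.516 and 0.704 in WT females, 0.380, 0.420 and 0.772 in Pou2f3-/- females, 0.505, 0.668 and 0.685 in WT males, and 0.484, 0.649 and 0.613 in Pou2f3-/- males. The groups overlapped throughout, from 18 to 48 counts. The log2 fold change was 0.01 with the knockout in females (95% interval −0.80 to 0.81) and −0.09 in males (−0.86 to 0.68). Differences inside these intervals are not excluded by these libraries. Between the sexes Aqp4 stood at 0.25 in WT and 0.16 in Pou2f3-/-. With library totals alone it was called higher in WT males (1.15, edgeR adjusted p = 0.0135). With acinar-marker library sizes it was called higher in males of both genotypes (2.00 and 1.67). The 6 glia markers, whose cells could carry Aqp4 in nerve, summed to 79.7 to 96.5 normalized CPM in the 6 female glands and 51.3 to 72.4 in the 6 male glands, most of it in females from Sox10, at a mean of 59.7 in WT and 59.1 in Pou2f3-/- females against 32.05 and 26.2 in males. Aqp8 (chromosome 7, 123061514 to 123067227, plus strand) had no count in any of the 12 glands, which allows up to 3 counts per library.

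Aqp11 (ENSMUSG00000042797.10; chromosome 7, 97373213 to 97387524, minus strand) was lower in Pou2f3-/- males than in Pou2f3-/- females, at very low counts. It had 20, 11 and 13 counts in WT females and 19, 31 and 18 in Pou2f3-/- females. It had 18, 14 and 11 in WT males and 14, 3 and 3 in Pou2f3-/- males. In normalized CPM all 6 males lay below all 6 females, from 0.0471 to 0.239 against 0.247 to 0.520. Between the sexes 47.6% (WT) and 54.8% (Pou2f3-/-) of tested genes did not overlap either, and 16.0% and 20.3% were called lower in males. The log2 fold change of Pou2f3-/- males to Pou2f3-/- females was −1.98 (SE 0.551, 95% interval −3.18 to −0.79, edgeR adjusted p = 0.011); the WT sex contrast was −0.71 (SE 0.525, edgeR adjusted p = 0.314). The call was lost without Pou2f3-/- male replicate 2 (−1.64, edgeR adjusted p = 0.0505) or replicate 3 (−1.63, edgeR adjusted p = 0.0525), with the authors' divisors (−1.67, edgeR adjusted p = 0.14) and with acinar-marker library sizes (−0.63, edgeR adjusted p = 0.328); without Pou2f3-/- male replicate 1 the value was −3.10. With the knockout Aqp11 stood at 0.40 in females (edgeR adjusted p = 0.575) and −0.88 in males (edgeR adjusted p = 0.594), and the difference of these contrasts was −1.28 (SE 0.758, edgeR adjusted p = 0.224). Without Pou2f3-/- male replicate 1 the male value was −2.00 (edgeR adjusted p = 0.064) and the difference was called (−2.40, edgeR adjusted p = 0.0234); without replicate 2 or 3 of that group the male value was −0.54 or −0.52. The 3 genes nearest to its pattern were Dhtkd1, at 0.211, and the long noncoding RNAs Gm56574 and Gm17017, both at 0.264, against a root mean square spread of 0.848 for Aqp11.

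Of the 6 other mouse aquaporin symbols, 5 were in the table (Mip, Aqp2, Aqp6, Aqp7 and Aqp12). Mip, Aqp6 and Aqp12 had a count of 0 in every library. Aqp2, the vasopressin-regulated channel of the kidney collecting duct, lies just before Aqp5 on chromosome 15 (99476936 to 99485016, plus strand) and had 14, 9 and 9 counts in WT females against 4, 2 and 3 in Pou2f3-/- females. In males it had 20, 32 and 15 counts in WT against 10, 1 and 0 in Pou2f3-/-. Genotypes did not overlap in either sex, as for 49.3% of all genes in females and 14.5% in males, but the log2 fold changes of −1.98 and −2.36 had edgeR adjusted p = 0.0844 and 0.254. Without Pou2f3-/- male replicate 1 Aqp2 was called in both sexes (−1.99, edgeR adjusted p = 0.0238, and −4.94, edgeR adjusted p = 0.0149), and without Pou2f3-/- male replicate 3 in females (−1.99, edgeR adjusted p = 0.0499). The noncoding gene Gm34765 overlaps Aqp2, Aqp5 and Aqp6 on the other strand in the newer annotation and has no row in the count table, and whether the counting used strand is not given in the sources used here.

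Aqp7, the glycerol channel of fat cells, varied within groups: 4, 9 and 87 counts in WT females, 19, 25 and 6 in Pou2f3-/- females, 1, 1 and 3 in WT males and 4, 62 and 25 in Pou2f3-/- males. The same 3 libraries with the highest adipocyte markers held 3 of the 4 highest Aqp7 levels. The part of fat in the Aqp7 differences was not tested. Aqp7 was lower in WT males than in WT females (log2 fold change −5.04, SE 1.36, edgeR adjusted p = 0.0113), a call lost without WT female replicate 3 (−2.48, edgeR adjusted p = 0.138). With the knockout it stood at −1.41 in females (edgeR adjusted p = 0.315), which turned to 1.13 without that library. In males it stood at 4.27 (edgeR adjusted p = 0.224), without overlap, as for 14.5% of all tested genes. The male value was called by DESeq2 (adjusted p = 0.0145), which called 2.41% of the genes it tested. It was also called by edgeR without a low-count filter (adjusted p = 0.0252), where 1.26% of all genes were called.

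The other genes of fluid secretion, a list of 21 transporters, channels, receptors and junction proteins that were all tested, moved in both directions in females. With the knockout 7 of 21 fell (19.3% of all tested genes did), 3 rose (17.6% did) and 11 were not called; the list's median log2 fold change was −0.27 beside 0.03 over all tested genes. Among the genes that fell were Slc12a2, the basolateral cotransporter that loads the cell with chloride (−0.73), Kcnn4 (−0.89), the sodium pump beta subunits Atp1b1 (−0.54) and Atp1b3 (−0.43), and the tight junction claudins Cldn3 (−0.71) and Cldn10 (−1.19). Those that rose included the anion exchanger Slc4a2 (0.48) and Itpr2, a calcium release channel of secretory cells (0.69). Ano1, the apical chloride channel through which secretion starts, stood at −0.31 (edgeR adjusted p = 0.212). The number that fell was 4 without WT female replicate 3 and 10 without WT female replicate 1. These fits called 26.5% and 38.4% of all genes in this contrast. With library totals alone, where the median of all tested genes moved to 0.53 and 40.3% of them were called, 1 fell and 7 rose.

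In males 0 of the 21 were called with the knockout by edgeR and 2 by DESeq2, both lower, where DESeq2 called 2.41% of all genes it tested, with a list median of −0.26 beside −0.04 over all genes; without Pou2f3-/- male replicate 1 edgeR called 7, in a fit that called 3.42% of all genes in males against 0.235% with that library. Between the sexes 6 of 21 were higher and 7 lower in WT males, and 7 higher and 8 lower in Pou2f3-/- males, against 20.5% higher and 16.0% lower of all tested genes in WT and 23.2% higher and 20.3% lower in Pou2f3-/-. Slc12a2, at −1.13 and −1.02, and Kcnn4, at −1.28 and −0.89, were lower in males of both genotypes, as Aqp5 was. With library totals alone 14 were higher and 0 lower in WT males, where 69.4% of all tested genes were called and their median stood at 0.96, and 7 higher and 5 lower in Pou2f3-/- males, where 38.9% were called.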

How the data were processed

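Total RNA of whole SMGs was made into stranded libraries after ribosomal RNA removal, per the study's methods, while the sample labels call the molecule polyA RNA. The authors assigned reads with Salmon 1.10.1 on GRCm39 with Gencode M35 transcripts and deposited estimated counts per gene, of which 78.9% of values were whole (within 1e-06). They also deposited a normalized signal table, counts divided by the authors with divisors that differ between genes; how these were made is not given in the sources used here, and it served as an alternative only.

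Estimated counts were rounded and fitted with edgeR 4.0.16 (R 4.3.3, limma 3.58.1): TMM, filterByExpr defaults, 1 quasi-likelihood model with 4 group means over 12 libraries, and Benjamini-Hochberg adjustment over the 17893 genes at 0.05. SE is the absolute log2 fold change over the square root of F. Log2 CPM used a prior count of 2. Positions and transcript lengths are from Gencode M39, which holds 55563 of 56065 identifiers. Promoters are the 250 bases before the start site in the RefSeq table, read for 6 members (not Aqp4) and Kcnn4. Named genes are the aquaporins, fluid secretion genes called in a contrast, list markers (some genes of the lists are counted but their values are not reported here), and the nearest 5 (Aqp5) or 3 (Aqp11) genes in pattern. The members and lists were chosen with earlier results of these data known. Replicates are separate mice.

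Alternatives were RLE and upper-quartile scaling, the 20 most abundant genes left out of library sizes, no filter or at least 10 counts in every library, DESeq2 1.42.0, a fit of only the groups compared, a replicate block, the authors' divisors, each library left out, 4 acinar markers for the Aqp5 ratio and, chosen after seeing the data, library totals alone, acinar-marker library sizes and a mean over both sexes. Scripts were tested on simulated data. Figures used Python 3.11.15 and matplotlib 3.10.9.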

Additional observations from a re-analysis of the deposited data

Results flagged for a closer look

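Among the other aquaporins and the fluid secretion genes, the knockout contrast differed between the sexes (male minus female contrast, edgeR interaction test on 3 mice per group) for the 5 genes given first, in a test that 25.7% of all tested genes passed; it was called for 5 of the 21 fluid secretion genes, a share near that background. Aqp7 differed by 5.68 on the log2 scale (edgeR adjusted p = 0.0314) and kept the call in 4 of the 12 fits with 1 library left out (3.19 to 6.35, edgeR adjusted p up to 0.126). With a replicate block Aqp7 lost the call (4.78, edgeR adjusted p = 0.0656). Itpr2 differed by −0.949 (edgeR adjusted p = 0.0038) and Cldn3 by 0.639 (edgeR adjusted p = 0.0107), and both kept the call in 12 of the 12 such fits. Slc4a2 differed by −0.61 (edgeR adjusted p = 0.0203) and Kcnma1, a potassium channel, by −0.612 (edgeR adjusted p = 0.0437), with the call kept in 6 and 2 of the 12 such fits. Slc5a8 at 0.617 and Dhtkd1 at −1.22 were picked for their likeness to Aqp5 and Aqp11 over the same libraries, so their values restate that choice and are a description. With library totals alone the difference of Cldn3 was 0.0147, and with library sizes from the acinar markers those of Slc4a2 and Kcnma1 had edgeR adjusted p = 0.0579 and 0.059.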

How the results depend on the processing

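Of 451 alternative values of the log2 fold changes of Aqp1, Aqp4, Aqp5 and Aqp11 over 5 contrasts, 399 kept direction and side of the threshold, 8 lost a call, 16 gained one and 28 changed sign; where the cause is not named, the cause was not tested. Aqp5 kept its calls in the female knockout contrast (−1.12 to −0.83) and in both sex contrasts under all 9 planned settings and with each of 12 libraries left out, and lost them or turned only under the 2 scalings chosen after seeing the data.

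With library totals alone the aquaporins called in the female knockout contrast fell from 1 to 0, Aqp1 turned to 0.0095, Aqp5 in the interaction turned to −0.21, and in the WT sex contrast Aqp1 turned to 0.41 and Aqp11 to 0.18, and the 1 call was Aqp4 (1.15) in place of Aqp5. With library sizes from the acinar markers, of which Prol1 made up 38.0 to 65.7%, the calls were 0 in the female knockout contrast and 3 in the WT sex contrast; Aqp1 turned to 0.20 in females, Aqp4 to 0.35 in males, Aqp1 to 1.27, Aqp5 to 0.56 and Aqp11 to 1.00 between the sexes in WT, and Aqp5 to 0.68 between the sexes in Pou2f3-/-; Aqp4 gained calls in both sex contrasts (2.00 and 1.67) and Aqp11 lost its own (−0.63); fluid secretion calls were 1 in the interaction and 21 in the WT sex contrast, where 7.69% and 89.5% of all genes were called. The median of all genes moved to 0.70 and 1.80 in the female knockout and WT sex contrasts. In these 2 contrasts library totals called 40.3% and 69.4% of all genes, and the acinar-marker sizes 46.8% and 89.5%.

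Aqp4 in females, near 0, turned to −0.0227 (RLE), −0.0414 (20 most abundant genes left out), −0.0086 (no filter), −0.0211 (DESeq2), −0.0083 (only the groups compared), −0.0046 (block) and −0.0731 (authors' divisors), and to −0.0026 between Pou2f3-/- sexes with upper-quartile scaling. With the authors' divisors Aqp11 in males was 0.11, and its Pou2f3-/- sex contrast −1.67 (edgeR adjusted p = 0.14). Interaction calls among the members were 1 with no filter and DESeq2 (Aqp1) and 1 with the authors' divisors (Aqp5). These fits called 14.5%, 31% and 23.4% of all genes in that test. Calls in the Pou2f3-/- sex contrast were 1 with at least 10 counts, a filter Aqp11 did not pass, and 1 with the authors' divisors. There 50.3% and 37.2% of all genes were called. Fluid secretion calls in males were 2 (no filter), 1 (10 counts), 2 (DESeq2) and 1 (block), beside 1.26%, 0.402%, 2.41% and 0.246% of all genes, and 8 in the interaction with DESeq2, beside 31%. With 4 acinar markers the Aqp5 ratio between the sexes was 0.155 in WT and 0.187 in Pou2f3-/-.

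With 1 library left out, aquaporin calls were 1 to 2 (female knockout), 0 to 1 (male), 0 to 2 (interaction), 1 (WT sexes) and 1 to 3 (Pou2f3-/- sexes), and fluid secretion calls 0 to 7 in males and 3 to 8 in the interaction, in fits that called 0.0702 to 3.42% and 12.9 to 30.2% of all genes. The same fits called 26.5 to 38.4% of all genes in the female knockout contrast. Between the sexes they called 27% to 36% in WT and 33.7 to 44.8% in Pou2f3-/-. Aqp4 ranged from −0.43 to 0.24 (female), −0.21 to 0.0295 (male), −0.29 to 0.38 (interaction) and −0.0159 to 0.50 (WT sexes). The Aqp5 ratio to all 8 acinar markers ranged from −2.11 to 0.0802 and −1.68 to 0.521 with the knockout in females and males, and from −2.07 to 0.166 and −1.60 to 0.336 between the sexes.

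The labels number replicates in each group but pair no mice: deviations of same-numbered libraries correlated between −0.13 and 0.27, and 2, 2, 2 and 4 of 6 libraries were nearest to their own number in the 4 comparisons. With a replicate block the female knockout contrast called 1 aquaporin, and no call among the members changed. Of the other aquaporins, Aqp7 lost its interaction call (4.78, edgeR adjusted p = 0.0656). Counting limits Aqp3, Aqp8 and Aqp9, each under 13 counts per library, and intervals cover the spread between mice in these libraries only.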

Other observations

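Averaged over both sexes in the same fit, a contrast chosen after seeing the data, 2 aquaporins of the table fell in Pou2f3-/- glands. Aqp5 fell by 0.73 on the log2 scale (SE 0.116, edgeR adjusted p = 0.00249), with a higher level in all WT than in all Pou2f3-/- libraries of its sex. Aqp2, at 0 to 32 counts, fell by 2.17 (SE 0.582, edgeR adjusted p = 0.0241), also without overlap within a sex. Genotypes did not overlap for 49.3% of all tested genes in females and 14.5% in males. The share without overlap in both sexes is not given here. Aqp1 stood at −0.04, Aqp4 at −0.04 and Aqp11 at −0.24, none of them called. In this averaged contrast 17.5% of all tested genes were called and 11.3% were called lower.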
